A study of Drosophila melanogaster with 2 samples.

Results

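The larval storage protein genes of Drosophila melanogaster were examined as a set of 6: Lsp1alpha, Lsp1beta, Lsp1gamma, Lsp2, Fbp1 and Fbp2. Members were chosen by symbol, as every probe that the platform annotation ties to exactly 1 of these genes, a rule that uses no measured value, although the set was chosen with earlier results of these data known. By that rule 3 of the 6 genes had a probe, Lsp2, Fbp1 and Fbp2, with 1 probe each among the 12500 probes measured on both arrays. All 3 probes had a value on both arrays, so no member was lost to a missing value. No probe is named for Lsp1alpha, Lsp1beta or Lsp1gamma here, and these 3 genes were not analysed. A further probe, 9537, carries the old name CG11538, which RefSeq lists as a synonym both of Lsp2 and of its overlapping antisense RNA asRNA:CR11538. It is therefore given beside Lsp2 and not counted with it unless stated.

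RNA labelled as that of control larvae was compared with RNA labelled as that of B52 transgenic larvae on 2 two-colour microarrays. The controls came from a cross of GMR with GFP-NLS, a nuclear form of green fluorescent protein (GFP), and the test larvae from a cross of GMR with GFP-B52, GFP fused to the splicing factor B52. All larvae thus carried GMR, in fly genetics a promoter active in the developing eye, and a form of GFP. The labels give no age, sex, number of animals or tissue, and whether the arrays shared RNA extracts is not stated. The control RNA of replicate 1 is labelled cytoplasmic RNA and the other 3 RNAs polyA RNA. The stated question was whether a raised level of the SR protein B52 alters gene expression across the genome. The arrays held no intensities in the table used here, so whether fat body RNA was present could not be checked from marker levels.

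Storage proteins are made by the fat body, the insect counterpart of liver and adipose tissue, and are secreted into the hemolymph during larval feeding. Late in larval life the steroid hormone ecdysone directs their uptake back into the fat body, where they are kept in protein granules as a source of amino acids for building the adult. The serum proteins LSP1 and LSP2 are hexamerins, relatives of the copper-binding prophenoloxidases. Lsp1alpha, Lsp1beta and Lsp1gamma encode the subunits of LSP1, and Lsp2 encodes the subunit of LSP2. Fbp1 encodes the fat body protein that serves as the receptor for storage protein uptake, and Fbp2 encodes a fat body protein related to alcohol dehydrogenase. Both Fbp genes are known as ecdysone-regulated genes of the late larva. In the RefSeq gene table Lsp2 and Fbp1 lie on chromosome arm 3L and Fbp2 on 2L.

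Direction and log base of the deposited log ratios are unknown. Each value is therefore read as B52 over control in 2 ways. The channel reading takes the values of both arrays as they stand, channel 2 over channel 1. The dye reading takes them as Cy5 over Cy3, which turns the sign of replicate 2, where the dyes were exchanged. Replicate 1 reads the same way in both. The 2 readings do not cover every direction, since channel 1 over channel 2 or Cy3 over Cy5 is also possible. These reverse readings were not fitted, and they would turn every sign and the direction of every fold below. In neither of the 2 readings used do the arrays show the B52 RNA itself raised. Its 5 probes were all below 0 on replicate 1, and 0 were positive on both arrays in either reading. Negative on both arrays were 2 by channel and 3 by dye, and a reverse reading would put these on the side of B52. None of the 5 probes passed limma's test. Their mean was -0.05 ± 0.13 by channel and -0.09 ± 0.07 by dye (SD, n = 2 arrays), and the part of the transcript they cover is not given in the sources. B52 over control below therefore refers to the labels of the RNAs. Folds are stated under a log10 and a log2 base. Errors after ± are SDs over both arrays, and having 2 arrays limits all precision.

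No storage protein gene passed the test of a difference between the RNA labelled B52 and the RNA labelled control. On replicate 1 the 3 probes lay close together and above 0, between 0.141 and 0.174. On replicate 2 they separated, with Fbp1 and Fbp2 above 0 and Lsp2 below 0 as deposited. The channel reading hence puts the 2 Fbp genes on the side of the RNA labelled B52 on both arrays, and the dye reading puts Lsp2 there alone. With limma, 0 of the 3 probes passed an adjusted p of 0.05 in either reading. Of all 12500 probes, 0% were called under the channel reading and 0% under the dye reading, and 815 and 750 probes had an unadjusted p under 0.05. Robust limma and an ordinary 1-sample test called 0 in both readings as well.

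Fbp1, the receptor for storage protein uptake, gave log ratios of 0.173 (replicate 1) and 0.064 (replicate 2) as deposited. Both values were above 0, at percentiles 84.8 and 62.9 of all tested probes. The channel-reading mean of Fbp1 was 0.12 ± 0.08 (SD, n = 2 arrays; limma adjusted p = 0.881), which is 1.31-fold under log10 and 1.09-fold under log2. In the dye reading the arrays fell on opposite sides of 0 and the mean was 0.05 ± 0.17 (SD, n = 2 arrays; limma adjusted p = 0.999). Of all probes, 29.8% were at least as far from 0 as its channel mean and 58.0% as its dye mean.

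Fbp2, the relative of alcohol dehydrogenase, had deposited values of 0.174 (replicate 1) and 0.089 (replicate 2). They differed from those of Fbp1 by 0.001 and 0.025, so the 2 Fbp genes gave almost the same pair of values. The channel-reading mean of Fbp2 was 0.13 ± 0.06 (SD, n = 2 arrays; limma adjusted p = 0.870), which is 1.35-fold under log10 and 1.10-fold under log2. In the dye reading it was 0.04 ± 0.19 (SD, n = 2 arrays; limma adjusted p = 0.999), again with 1 array on each side of 0. Of all probes, 25.4% were at least as far from 0 as the channel mean of Fbp2 and 66.4% as its dye mean.

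Lsp2, the subunit gene of the second serum protein, had 0.141 on replicate 1 and -0.118 on replicate 2, percentiles 80.6 and 22.4. It was the 1 storage gene whose deposited values changed sign between the arrays. The channel-reading mean of Lsp2 was 0.01 ± 0.18 (SD, n = 2 arrays; limma adjusted p = 0.994), which is 1.03-fold under log10 and 1.01-fold under log2. In the dye reading the arrays gave 0.141 and 0.118, and the mean was 0.13 ± 0.02 (SD, n = 2 arrays; limma adjusted p = 0.999), which is 1.35-fold under log10 and 1.09-fold under log2. Values at least as far from 0 were found for 23.5% of all probes. On replicate 2 Lsp2 lay 0.182 from Fbp1 and 0.207 from Fbp2, while on replicate 1 the distances were 0.032 and 0.033. These differences between genes were not tested.

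**Figure D1:**
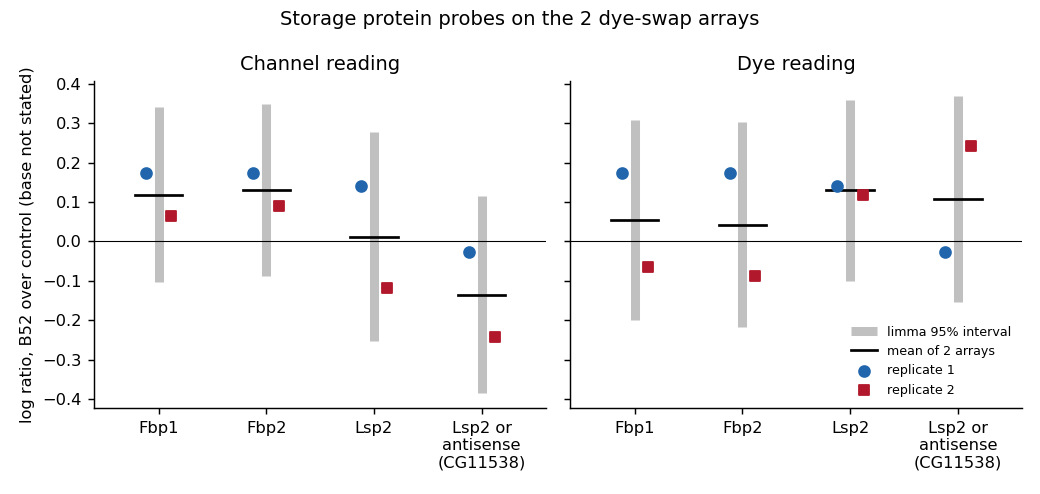
Log ratio of B52 over control (y axis, log base not stated) for each storage protein probe in the channel reading (left) and the dye reading (right). Circles are replicate 1, squares replicate 2, black lines the mean of the 2 arrays and grey bars limma's 95% interval; all intervals include 0, and the arrays lie on the same side of 0 for Fbp1 and Fbp2 on the left and for Lsp2 on the right.

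Probe 9537, which may report Lsp2 or its antisense RNA, had deposited values of -0.027 on replicate 1 and -0.243 on replicate 2. Both were below 0, and the value of replicate 2 stood at percentile 8.74. Its mean was -0.14 ± 0.15 (limma adjusted p = 0.880) by channel and 0.11 ± 0.19 (limma adjusted p = 0.999) by dye, both as SD over 2 arrays. It differed from the Lsp2 probe by 0.168 on replicate 1 and 0.125 on replicate 2. Over the 541 genes with exactly 2 probes, replicate 1 had a median distance of 0.143 between both probes and replicate 2 one of 0.154. The 2 candidate Lsp2 probes thus stood about as far apart as 2 probes of 1 gene commonly did. Probes of different genes could lie closer, as Fbp1 and Fbp2 did at 0.001 and 0.025. The distance therefore cannot tell whether probe 9537 reports Lsp2. With probe 9537 averaged in, the channel-reading mean of Lsp2 turned in sign to -0.06 ± 0.17 (SD, n = 2 arrays), and its dye-reading mean was 0.12 ± 0.09. The sources used here do not say whether the probes tell the gene from its antisense RNA.

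The 95% intervals of limma describe the spread between the 2 arrays in the 2 readings fitted. That spread may be technical only, so the intervals cannot bound a difference between the genotypes. For Lsp2 in the dye reading the interval ran from -0.10 to 0.36, that is, 0.795 to 2.29 times the control under log10 and 0.933 to 1.28 times under log2. The channel interval of Lsp2 was -0.25 to 0.28. For Fbp1 the channel interval was -0.10 to 0.34, with an upper end at 2.19 times under log10 and 1.27 times under log2, and for Fbp2 it was -0.09 to 0.35, with upper ends at 2.24 and 1.28 times. If the values are log10, a doubling lay inside the dye-reading interval of each of the 3 genes and the channel-reading interval of both Fbp genes, while that of Lsp2 ended at 1.89 times. If they are log2, none of the 3 intervals in either reading reached a doubling. The widest ends were then 1.28 times at the top, for Lsp2 in the dye reading, and 0.839 times at the bottom, for Lsp2 in the channel reading.

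Set against all genes, the signs of the storage genes followed no reading in full. In the channel reading 2 of the 3 genes lay above 0 on both arrays and 0 below it on both, where 27.9% of the 10299 genes measured lay above and 24.2% below on both. In the dye reading 1 of 3 lay above 0 on both arrays and 0 below, against 21.8% and 25.9%. A set of 3 genes is too small to be read against these shares. The 3 genes had a channel-reading median of 0.12 ± 0.08 (SD of the array medians, n = 2 arrays) and a dye-reading median of 0.05 ± 0.17. The medians over all genes were 0.008 and -0.008. At an unadjusted p under 0.05 in limma, 0 of the 3 probes stood in either reading, against 6.52% and 6% of all probes.

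**Figure D2:**
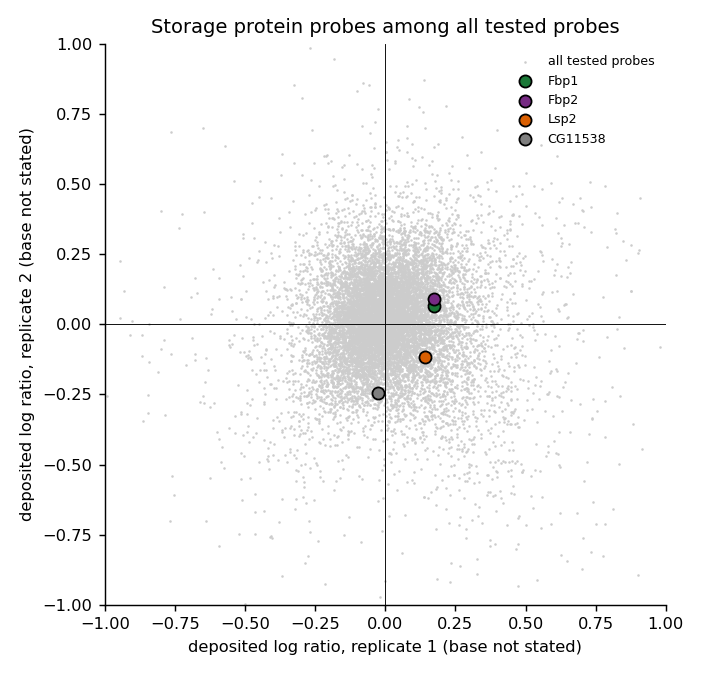
Deposited log ratio of replicate 2 against that of replicate 1 (log base not stated) for all 12500 tested probes in grey, with the storage protein probes as coloured circles; 45 probes lie outside the axes at 1. Fbp1 and Fbp2 lie almost on each other in the upper right quadrant and Lsp2 in the lower right, all within the body of the cloud.

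On replicate 2 the values of the storage genes lay within the range of the medians of regions of the array, while on replicate 1 they lay above all such medians. Probe numbers repeat in a layout from which 48 print blocks of 328 successive numbers were taken. The median log ratio of a block ranged from -0.0815 to 0.086 on replicate 1 and from -0.148 to 0.182 on replicate 2. The block of Fbp1 had medians of 0.071 and 0.0945 on the 2 arrays, and the block of Fbp2 0.046 and 0.113. Both Fbp genes therefore sat above their block on replicate 1 and below it on replicate 2. The block of Lsp2 had medians of 0.001 and 0.075, so Lsp2 stood 0.14 above its block on replicate 1 and, relative to its block, at -0.19 on replicate 2.

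With block medians removed, the signs of the 3 genes on replicate 2 became alike. Fbp1 stood at 0.10 and -0.03 on replicates 1 and 2, Fbp2 at 0.13 and -0.02, Lsp2 at 0.14 and -0.19. All 3 were then positive on both arrays in the dye reading, against 25.5% of all probes, and 0 were so in the channel reading, against 24%. A set of 3 genes is too small to be read against these shares. The values of Fbp1 and Fbp2 on replicate 2 were also smaller than the median SD between the arrays, 0.09 by channel. Lsp2 had the largest mean of the 3 in that setting, a dye-reading mean of 0.17 ± 0.04 (SD, n = 2 arrays; limma adjusted p = 0.757), which is 1.47-fold under log10 and 1.12-fold under log2. Of all probes, 14.8% were at least as far from 0. The dye means of Fbp1 and Fbp2 were 0.07 ± 0.05 and 0.08 ± 0.07 (SD, n = 2 arrays; limma adjusted p = 0.973 and 0.959). Their channel means fell from 0.12 and 0.13 as deposited to 0.04 ± 0.09 and 0.05 ± 0.11 (SD, n = 2 arrays). Probe 9537 also took 1 sign in that reading, with a mean of 0.08 ± 0.06 (limma adjusted p = 0.948). No storage probe passed limma's test with block medians removed, and 0% of all probes did in either reading. The part of print position in the deposited values was not tested.

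**Figure D3:**
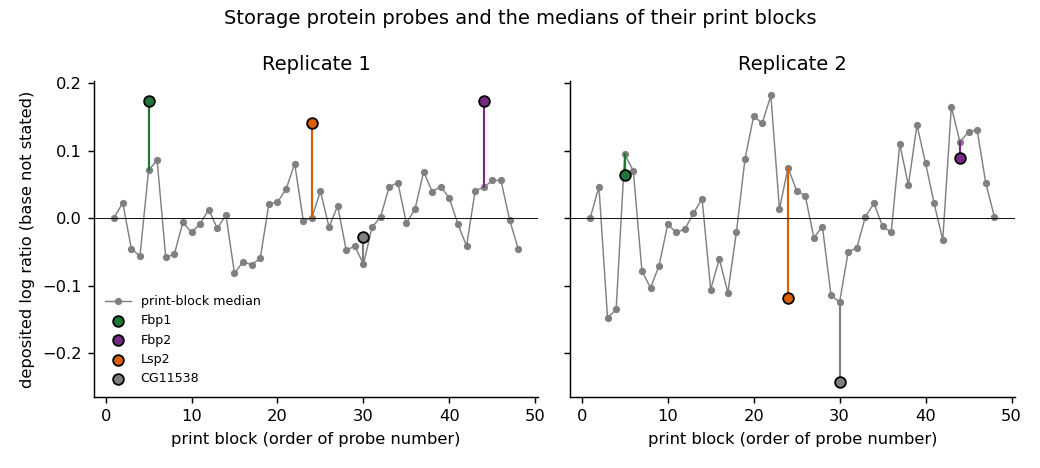
Deposited log ratio (y axis, log base not stated) of the storage protein probes on replicate 1 (left) and replicate 2 (right), placed at their print block (x axis, numbered by probe order), with the median of every block in grey and a line from each probe to its block's median. On replicate 2 Fbp1 and Fbp2 lie just below their block medians of 0.0945 and 0.113, and Lsp2 lies well below its own.

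The prophenoloxidase genes PPO1, PPO2 and PPO3 belong to the same protein superfamily as the hexamerins. Their values were farther from 0 than those of the storage genes. PPO2 had 0.447 and -0.519 on replicates 1 and 2, a dye-reading mean of 0.48 ± 0.05 (SD, n = 2 arrays; limma adjusted p = 0.363) and a channel-reading mean of -0.04 ± 0.68. PPO1 had 0.585 and -0.241, means of 0.41 ± 0.24 by dye (limma adjusted p = 0.543) and 0.17 ± 0.58 by channel. PPO3 had 0.279 and 0.194, the same sign on both arrays as deposited, with means of 0.24 ± 0.06 by channel (limma adjusted p = 0.750) and 0.04 ± 0.33 by dye. As deposited, PPO1 and PPO2 were positive on both arrays by dye and PPO3 by channel, and with block medians removed these counts stayed at 2 and 1. None of their probes passed limma's test (0 of 3 in either reading). An unadjusted p under 0.05 in limma was found for 2 of the 3 by dye, against 6% of all probes. By channel it was found for 1, against 6.52%. Prophenoloxidases are made mainly by blood cells. The 12 hemocyte markers had a median of 0.0645 in the dye reading, with 4 positive and 2 negative on both arrays (21.8% and 25.9% of all genes). In the channel reading the median was -0.010, with 3 positive and 3 negative (27.9% and 24.2% of all genes). Nplp2 had 0.397 and -0.526 and eater 0.1 and -0.287, while lz had the opposite signs, -0.125 and 0.296.

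Other fat body genes gave a frame for the storage genes, since fewer fat body cells and less of a transcript per cell cannot be told apart in RNA of larvae. Of 25 fat body markers 23 were measured, and 0 of their 25 probes passed limma's test in either reading. Their median was 0.059 ± 0.025 (SD of the array medians, n = 2 arrays) in the dye reading, with 12 genes positive and 5 negative on both arrays, and 0.009 ± 0.108 in the channel reading, with 4 and 2. Over all genes the shares positive and negative on both arrays were 21.8% and 25.9% by dye, and 27.9% and 24.2% by channel. At an unadjusted p under 0.05 stood 5 of the 25 marker probes by dye, against 6% of all probes, and 1 by channel, against 6.52%. The storage medians were 0.05 by dye, with an SD of 0.17, and 0.12 by channel. Tsf3, of the transferrin family, had 0.298 and 0.234 as deposited. The trehalose transporter gene Tret1-1 had 0.198 and -0.276, and the fatty acid synthase gene FASN1 -0.194 and 0.298. These 3 markers, whose smaller absolute value of both arrays was the largest of the list, showed 3 different combinations of signs. Other markers of the list also differed. By dye, apolpp (-0.201 and 0.058 as deposited) and Apoltp (-0.147 and 0.165) were negative on both arrays. Lsd-1 (0.178 and -0.33) and Desat1 (0.3065 and -0.1135) were positive on both.

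Regulators of storage protein expression were read from a list of 20 hormone receptors and transcription factors, of which 18 were measured. Their channel-reading median was 0.028 and their dye-reading median 0.020, and 0 of 27 probes passed limma's test in either. In each reading 7 genes were positive on both arrays, against 27.9% of all genes by channel and 21.8% by dye. Negative on both were 1 by channel and 3 by dye, against 24.2% and 25.9%. With print-block medians removed, 5 were positive and 1 negative by channel, and 6 and 6 by dye. The ecdysone-induced factor Eip93F had 0.729 and 0.509 as deposited, a channel-reading mean of 0.62 ± 0.16 (SD, n = 2 arrays; limma adjusted p = 0.705). Its dye-reading mean was 0.11 ± 0.88. E(bx), a subunit of the chromatin remodeller NURF, had -0.15 and 0.247. Kr-h1, a factor of juvenile hormone response, had 0.157 and -0.141, a dye-reading mean of 0.15 ± 0.01 (limma adjusted p = 0.999) and a channel-reading mean of 0.01 ± 0.21.

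The uptake of storage proteins into granules and their later breakdown were represented by 17 measured genes of endosomal trafficking and autophagy out of 20. Their channel-reading median was -0.004 and their dye-reading median 0.027, and 0 of 18 probes passed limma's test in either. The autophagy gene Atg18a had 0.101 and -0.099, while dor and car, which encode subunits of vacuolar sorting complexes, had -0.184 and -0.087 and -0.091 and -0.083. Of 18 genes of amino acid supply and TOR signalling 11 were measured, with medians of 0.0535 and 0.025 and 0 of 12 probes called in either reading. Among these, slif, an amino acid transporter needed for nutrient sensing in the fat body, had 0.552 and -0.22, a dye-reading mean of 0.39 ± 0.23 (SD, n = 2 arrays; limma adjusted p = 0.587). Its channel-reading mean was 0.17 ± 0.55. The kinase gene Akt, with 2 probes, had mean values of 0.411 and -0.271, and the transporter gene path 0.223 and -0.139. In this list 3 genes were positive and 3 negative on both arrays by channel (27.9% and 24.2% of all genes), and 3 and 2 by dye (21.8% and 25.9%). Of the 12 probes of this list, 3 had an unadjusted p under 0.05 in limma by dye, against 6% of all probes. By channel 0 had, against 6.52%.

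Among marker lists of 5 other larval tissues, 4 had a dye-reading median above the 0.0545 of the storage genes, and midgut did not. Salivary glue genes, like the Fbp genes products of the late larva, had a dye-reading median of 0.11 over 11 genes. By dye, 6 glue genes lay above 0 on both arrays and 2 below (21.8% and 25.9% of all genes). The 6 were Sgs1, with 0.491 and -0.519 as deposited, Sgs5bis, ng1, ng2, ng3 and ng4. The remaining glue genes did not share that lean. Sgs3 had 0.086 and 0.021, Sgs4 -0.048 and 0.014, and Sgs5 -0.035 and -0.011. Sgs7 had 0.023 and 0.044, and Sgs8 -0.112 and 0.012. The dye-reading median was 0.297 for 10 muscle genes, led by up with 0.647 and -0.844. For 11 cuticle genes it was 0.236, led by Cpr67Fa1 with 0.735 and -0.813. The midgut markers had a median of -0.098 over 12 genes. No probe of these lists passed limma's test in either reading. At an unadjusted p under 0.05 by dye stood 5 of 11 glue, 8 of 11 muscle, 7 of 11 cuticle, 2 of 12 midgut and 1 of 13 hemocyte probes, against 6% of all probes. In the channel reading their medians lay between -0.0935 and -0.010, all below 0, and the storage median of 0.12 lay above them. The SDs of these array medians ran from 0.03 for hemocytes to 0.44 for muscle. With print-block medians removed the storage median was 0.036, and those of the 5 tissues lay between -0.102 and -0.0015. The differences between lists were not tested.

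**Figure D4:**
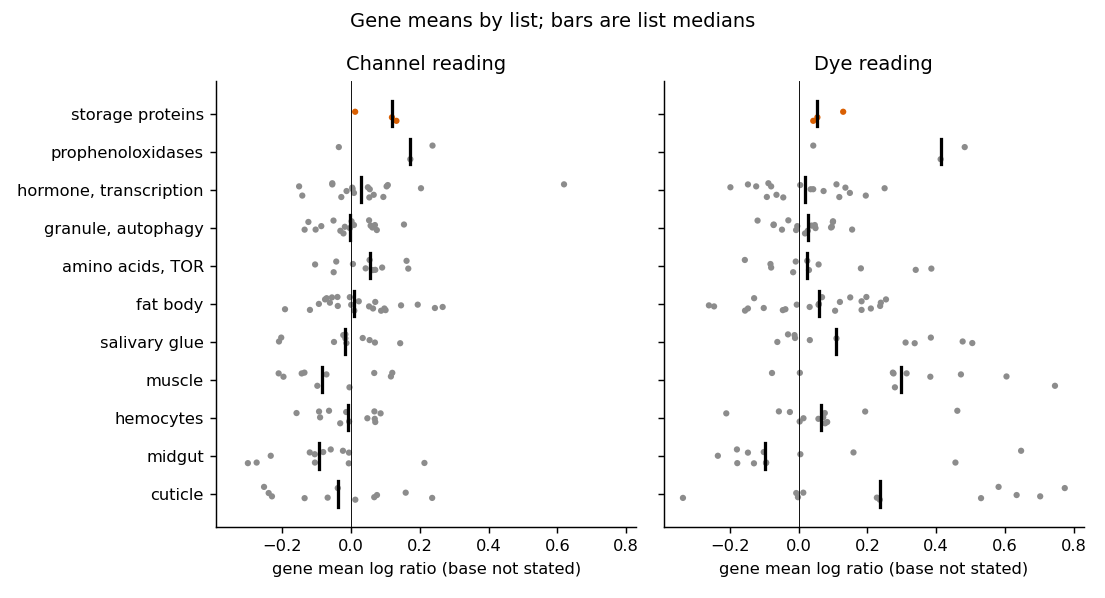
Mean log ratio of each gene (x axis, log base not stated) in the channel reading (left) and the dye reading (right), by gene list, with storage proteins in orange and a black bar at each list's median. The 3 storage genes stay between 0.01 and 0.13 in both readings, while some muscle, cuticle and midgut genes extend beyond 0.6 in the dye reading.

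Genes with the most similar pair of values were found by Euclidean distance over the 2 arrays. Nearest to the mean of the 3 storage genes, 0.163 and 0.0117, were SCaMC, thw, CG16700, CG18131 and CG18327, the nearest at a distance of 0.0024. Nearest to Fbp2, the storage gene farthest from 0, were bnk, sesB and Idgf5. Within a distance of 0.05 lay 205 of the 10296 other genes for the storage mean and 192 for Fbp2, so a likeness over 2 arrays does not single out any gene.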

How the data were processed

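For each spot of an array the table deposited by the authors holds 1 log ratio. The sources used here give no image analysis, background correction, normalisation, log base or direction. The 2 arrays form 1 group, numbered in accession order. Of 15744 spots, replicate 1 had 13919 values and replicate 2 had 14026, after 5 cells with the code -10000 were set to missing. At 40 positions repeated in 24 sub-grids, 960 unnamed spots were left out as controls. Probes were named from the platform annotation: 13147 had 1 symbol, 99 several and 2498 none, and 13107 of the first matched a RefSeq gene. All 12500 probes measured on both arrays were fitted against 0 with lmFit and eBayes (limma 3.58.1, R 4.3.3), with Benjamini-Hochberg adjustment over all of them, in each reading. The fit was run on simulated data with known changes, drawn from the variance model that limma itself had fitted. That run checks the code and not whether the model holds for these arrays. The simulated data held no print-block or dye offsets, so the simulation does not cover such offsets. The ordinary test left out 21 (channel) and 16 (dye) probes with identical values. P-values measure only the spread between 2 arrays, which may be technical. Summaries used Python 3.11.15, pandas 2.3.3 and numpy 2.4.6. The tests were designed for log ratios of any base.

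Members and gene lists were chosen with earlier results of these data known. All storage probes were named. From each other list up to 3 genes were eligible, those with the largest smaller absolute value of the 2 arrays (gene means), and the 5 and 3 genes nearest to the storage mean and to the storage gene farthest from 0. Alternatives covered centring, scaling, print-block medians, averaging of probes, the variance model, the probes tested, the threshold and single arrays; counting probe 9537 as Lsp2 was added after the data were seen.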

Additional observations from a re-analysis of the deposited data

How the results depend on the processing

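The count of storage probes that passed limma's test was 0 in both readings under every alternative run: centring, scaling, removal of print-block medians, averaging of probes, restriction to probes with 1 symbol, robust limma, an ordinary 1-sample test and an adjusted p of 0.1. So was the count over all probes. Removal of print-block medians moved the storage median in the channel reading from 0.12 to 0.036. The same step moved the number of storage genes with 1 sign on both arrays from 2 to 0 in the channel reading and from 1 to 3 in the dye reading. The cause was not tested. Single arrays gave storage medians of 0.064 and 0.173 in the channel reading, and of -0.064 and 0.173 in the dye reading, where the sign turned without replicate 1. Without replicate 1 the dye-reading values of Fbp1 and Fbp2 turned to -0.064 and -0.089, and the channel-reading value of Lsp2 to -0.118. With print-block medians removed the channel-reading mean of Lsp2 was -0.0265. Both storage medians under centring and scaling lay within the spread of the arrays. Each ratio already sets both RNAs of 1 array against each other, and no replicate block could be added, since the arrays form 1 group. The lack of intensities means that dim spots could not be told from bright ones.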
